A study of Mus musculus with 4 samples.

Results

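The 53 genes described here encode proteins that carry a cell through its division cycle: the cyclins and kinases of G1 and S phase, the factors that license and copy DNA, the enzymes that make deoxynucleotides, and the kinases, motors and checkpoint proteins of mitosis. They were chosen by gene symbol, as known cyclins, replication licensing, nucleotide synthesis and mitotic genes, out of 47729 genes in the table, and the choice did not use a threshold on their values. RNA was sequenced from tumors of Lewis lung carcinoma (LLC), a mouse lung cancer line, taken 5 days after subcutaneous grafting in C57BL/6 mice. By the labels, the cells of 1 group expressed murine chemerin (residues 1 to 157) from a pEFIN plasmid (LLC-Chem), and in the other they did not (LLC). Each of the 4 libraries was made from 3 pooled tumors, with 2 pools per group, and the question was which transcripts differ between tumors of cells with and without this plasmid. The labels call the LLC cells wild type, whereas the study's text also describes cells that received the empty vector, and transfected cells were picked as individual clones after G418 selection. A difference between the groups and a difference between clones therefore cannot be told apart.

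A cell that is set to divide first makes D-type cyclins, which with CDK4 and CDK6 phosphorylate the retinoblastoma protein and release E2F transcription factors. E2F factors drive genes for DNA synthesis, among them cyclin E, the MCM helicase that is loaded on origins before S phase, and the enzymes of deoxynucleotide synthesis. Genes of G2 and mitosis peak later, under B-MYB (Mybl2), FOXM1 and the DREAM and MuvB complexes, and their promoters are known for CHR and CCAAT elements. Tumor growth depends on cycling cells, and many of these transcripts are at low levels in cells that do not divide.

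The libraries held a fitted 30834000 and 28470000 reads (LLC) and 33990000 and 33518000 reads (LLC-Chem), so that 3 reads, taken as the floor of detection, equal 0.088 to 0.105 RPM (reads counted on genes, scaled to a total of 1000000). All 53 genes were far above it and had a mean of at least 1 RPM, the level required for testing, as had 13694 genes in all. Values are in RPM as deposited, fold changes are differences of log2(RPM + 0.5), and a gene is called where its limma p-value, adjusted over all genes tested, is under 0.05. In counts of genes, fell and rose mean called lower and called higher in LLC-Chem. The transfected gene, Rarres2, which encodes chemerin, was at 102 and 98.2 RPM in LLC and 106 and 106 RPM in LLC-Chem (log2 fold change 0.079, limma, adjusted p = 0.541), so the transcript did not check the group labels, and LLC and LLC-Chem below are the libraries with those labels. Of the markers of the labelled tissue, the keratins Krt8 (82.8 to 167 RPM) and Krt18 (110.0 to 139 RPM) were present in every pool. Krt19 was at 2.10 to 15.3 RPM and Cdh1 at 0.45 to 1.40 RPM, Epcam (0 to 0.2 RPM) and the surfactant gene Sftpc (0 to 0.1 RPM) were near the floor, and the lung factor Nkx2-1 was at 0 in all 4.

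Promoters of 42 of the 53 genes could be read from RefSeq (GRCm38.p6), from 250 bases before to 50 after the start. They were searched on either strand for the CHR words TTTGAA and TTCGAA, for CCAAT, and for the E2F words TTTCCCGC, TTTCGCGC, TTTGCCGC and TTTGGCGC. Below are the 150 bases before the start for 5 genes with lower transcripts in LLC-Chem and for Mcm6 and Cdk2, which did not pass the test. They are shown because mitotic and replication genes differed in these letters, and this set was chosen after the values were seen. All 5 of the former hold a CHR word in the bases shown, and Mcm6 and Cdk2 hold an E2F word, which is not typical of the 42. Of these 42 promoters, 12 belong to genes that were not called. In the 250 bases before the start, 11 of the 42 held a CHR word, 9 in genes called lower and 2 in genes not called. An E2F word was there in 6 of the 42, 2 in genes called lower and 4 in genes not called. Capitals mark a match to any of these words, and matches that overlap were counted separately.
Cdk1 (chr10:69352913-69353062, minus strand): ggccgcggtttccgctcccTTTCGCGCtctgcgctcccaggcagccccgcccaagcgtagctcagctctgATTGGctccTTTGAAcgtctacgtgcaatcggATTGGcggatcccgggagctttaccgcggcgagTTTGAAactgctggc
Cdc20 (chr4:118437344-118437493, minus strand): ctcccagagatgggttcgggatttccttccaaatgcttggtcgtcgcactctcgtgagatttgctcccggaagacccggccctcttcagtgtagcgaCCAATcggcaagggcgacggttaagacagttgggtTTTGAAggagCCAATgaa
Ube2c (chr2:164769779-164769928, plus strand): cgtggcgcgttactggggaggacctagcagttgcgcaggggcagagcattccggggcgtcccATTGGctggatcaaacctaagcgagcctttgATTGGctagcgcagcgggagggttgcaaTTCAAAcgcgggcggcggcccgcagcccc
Kif11 (chr19:37376232-37376381, plus strand): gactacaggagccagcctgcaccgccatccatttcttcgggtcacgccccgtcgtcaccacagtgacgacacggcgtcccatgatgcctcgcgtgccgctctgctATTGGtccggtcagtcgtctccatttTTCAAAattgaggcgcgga
Top2a (chr11:99024190-99024339, minus strand): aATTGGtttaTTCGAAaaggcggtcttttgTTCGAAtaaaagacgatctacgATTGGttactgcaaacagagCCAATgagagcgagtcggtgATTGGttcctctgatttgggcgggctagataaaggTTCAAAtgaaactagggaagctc
Mcm6 (chr1:128359706-128359855, minus strand): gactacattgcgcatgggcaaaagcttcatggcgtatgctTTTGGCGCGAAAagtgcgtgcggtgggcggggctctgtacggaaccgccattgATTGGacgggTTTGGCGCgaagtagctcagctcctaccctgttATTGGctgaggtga
Cdk2 (chr10:128705052-128705201, minus strand): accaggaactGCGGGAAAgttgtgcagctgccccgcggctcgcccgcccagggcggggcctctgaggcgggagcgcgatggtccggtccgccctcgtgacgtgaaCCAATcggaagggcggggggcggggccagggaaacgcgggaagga
In the 300 bases searched, a CHR word was present in 16 of 21 promoters of the 4 mitotic groups (76.2%), in 3 of 21 of the other members (14.3%) and in 13.6% of the 9660 promoters of protein-coding genes tested. In the 250 bases before the start alone, the share was 38.1% of the mitotic promoters (8 of 21), 14.3% of the others and 12.0% of the 9660. CCAAT was present in 85.7% of the mitotic promoters and 52.4% of the others, against 38.8% of those 9660. CHR and CCAAT stood together in 76.2% of the mitotic promoters, 14.3% of the others and 5.8% of the 9660. The E2F words ran the other way, with 4.76% of the mitotic promoters, 33.3% of the others and 4.05% of the 9660. These matches describe the letters in the window, and binding was not measured.

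Most of the 53 transcripts were lower in the libraries labelled LLC-Chem; the groups with the most negative medians were mitotic cyclins and kinases (-0.97) and nucleotide synthesis enzymes (-0.92). Of the 53, 40 were called lower in LLC-Chem (75.5%), 0 were called higher and 13 were not called (limma), whereas 13.5% of all 13694 genes tested were called lower and 9.54% higher. The median log2 fold change of the 53 was -0.80, against -0.04 for all genes tested. In 48 of the 53 both LLC-Chem pools were below both LLC pools, a pattern shown by 39.3% of all genes tested, and Cdk2 was the only member with both LLC-Chem pools above both LLC pools (33.1% of all genes tested). Summed over the 53 genes, LLC pool 1 held 5428 RPM and LLC pool 2 held 4652 RPM, against 3485 RPM and 3158 RPM for those labelled LLC-Chem, which is 65.9% of the LLC mean. The fold change was negative for 49 of the 53 genes, as for 53.7% of all genes tested. Pool 1 was above pool 2 for 51 of the 53 genes in LLC (57.6% of all genes tested) and for 49 in LLC-Chem (51.6%), and against the LLC mean the median log2 fold change was -0.64 in pool 1 and -0.90 in pool 2. The pools of a group thus differed from each other, but their sums lay closer together than those of the groups.

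**Figure D1:**
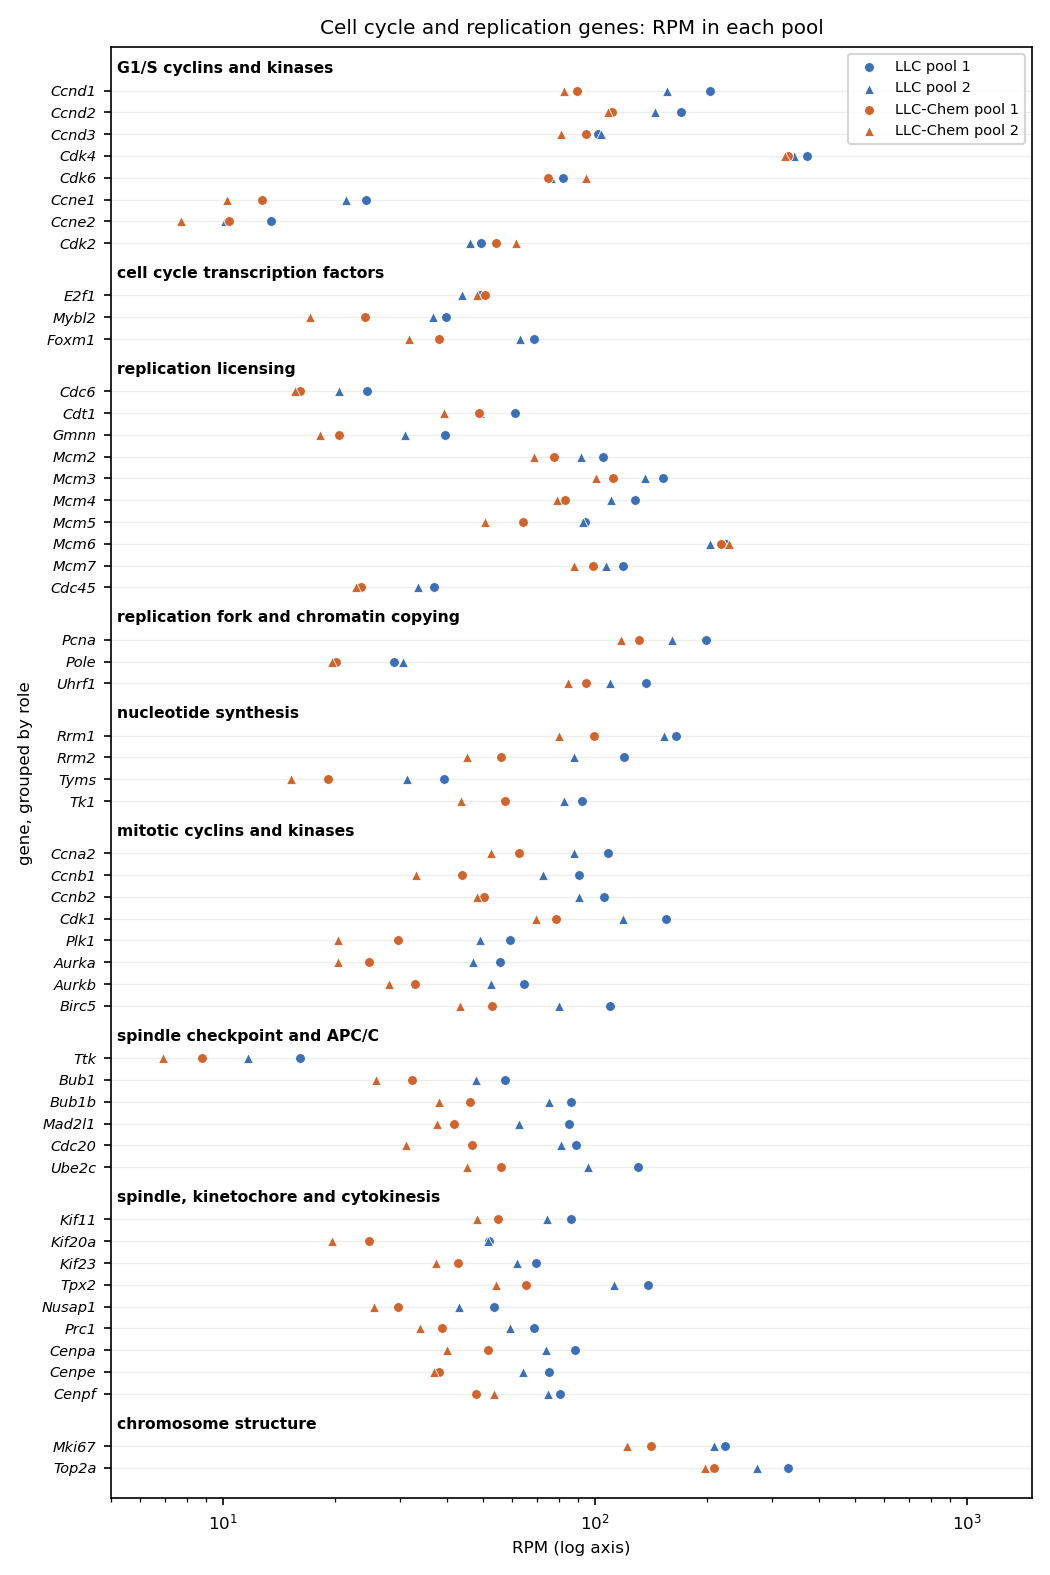
RPM of each of the 53 genes in each pool, on a log axis. Circles are pool 1 and triangles pool 2 of LLC (blue) and LLC-Chem (orange), with genes grouped by role. For 48 genes both orange points lie left of both blue points, and for Cdk2 both lie right of them.

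These counts rest on all 4 pools. With any one of them left out, limma called 0 of the 53 genes at the adjusted threshold and 37 to 44 at an unadjusted p under 0.05 (18.8% to 36.3% of all genes tested), and the median log2 fold change stayed between -0.91 and -0.64. Limma also called 0 of the 53 without the filter on low values (26260 genes tested), with 44 at an unadjusted p under 0.05 (28.2% of all genes in that fit). The p-values measure the spread between pools, which limma moderates with a variance trend over all genes tested. An exact two-sided permutation test of 2 pools against 2 cannot go below 0.33. In a whole tumor, fewer dividing cells and less RNA per dividing cell cannot be told apart. Markers of leukocytes and endothelial cells were also lower, and those of fibroblasts went both ways. Of all genes tested, 13.5% were called lower and 9.54% higher. Of 15 leukocyte markers 11 were tested and 8 were called lower, with a summed level of 1131 and 1455 RPM in LLC and 755.5 and 411.6 RPM in LLC-Chem. All 6 endothelial markers were called lower, with sums of 225.8 and 153.6 RPM in LLC and 52.4 and 28.4 RPM in LLC-Chem. Of 5 fibroblast markers 2 were called lower (Col1a1 and Col1a2) and 1 higher (Pdgfra), while Dcn (log2 fold change 0.80) and Lum (1.00) were above LLC in both LLC-Chem pools and not called. The median log2 fold change of these 5 was 0.72, whereas their sum, in which the collagens have the largest share, was 11799.6 and 20339 RPM in LLC and 8559 and 6869 RPM in LLC-Chem. None of the 3 tested of 7 epithelial and lung markers was called. The part of these cells in the results below was not tested.

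All 3 D-type cyclins, which open G1, had no overlap between the groups, with LLC-Chem lower, a pattern shown by 39.3% of all genes tested. Of these cyclins 2 were called lower, as were 13.5% of all genes tested. Ccnd1 (cyclin D1) was at 205 and 156 RPM in LLC and 89.5 and 82.6 RPM in LLC-Chem, a log2 fold change of -1.05 ± 0.15 (SE, limma, adjusted p = 0.0150). Ccnd2 (cyclin D2) fell from 171 and 146 RPM to 111 and 109 RPM (-0.52 ± 0.11, limma, adjusted p = 0.0323). Ccnd3 (cyclin D3) did not pass the test, at 102 and 104 RPM in LLC and 94.4 and 80.9 RPM in LLC-Chem (-0.23, adjusted p = 0.171), and its 95% interval (-0.52 to 0.046) overlapped that of Ccnd2 (-0.81 to -0.24). The call of Ccnd2 was lost in the limma fit without a variance trend (adjusted p = 0.0639). The partner kinase Cdk4, which had the highest level of the 53 both in RPM and per kilobase of exon (110 RPM per kb in LLC), was at 371 and 343 RPM in LLC and 331 and 324 RPM in LLC-Chem, with a 95% interval of its log2 fold change from -0.38 to 0.14 (limma, adjusted p = 0.407). Cdk6 was at 82.2 and 76.2 RPM in LLC and 74.8 and 94.5 RPM in LLC-Chem, and its groups overlapped (interval -0.26 to 0.43). These intervals exclude a log2 fold change of -1.05, that of Ccnd1, for both kinases.

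Cyclin E binds CDK2 at the entry to S phase, and of its 2 genes Ccne1 was called. It fell from 24.2 and 21.5 RPM to 12.7 and 10.2 RPM (-0.97 ± 0.17, limma, adjusted p = 0.0209). Ccne2 was at 13.5 and 10.1 RPM in LLC and 10.4 and 7.70 RPM in LLC-Chem, and its groups overlapped (adjusted p = 0.264). Cdk2 itself had the highest log2 fold change of the 53 genes (0.27, 95% interval -0.012 to 0.55), at 49.3 and 46.3 RPM in LLC and 54.3 and 61.5 RPM in LLC-Chem, and it did not pass the test (limma, adjusted p = 0.133). In the G1/S group as a whole 3 of 8 genes were called lower and 0 higher, against 13.5% and 9.54% of all genes tested. The median log2 fold change of the 8 was -0.30.

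Among the transcription factors, those of the mitotic program fell and E2f1 did not. Foxm1, which drives G2 and M genes, went from 68.5 and 62.8 RPM to 38.1 and 31.6 RPM (-0.91 ± 0.13, limma, adjusted p = 0.0152). Mybl2 (B-MYB), which acts with MuvB on the same genes, went from 39.8 and 36.8 RPM to 24.0 and 17.2 RPM (-0.90 ± 0.18, limma, adjusted p = 0.0284). E2f1, an activating E2F, was at 49.1 and 43.9 RPM in LLC and 50.8 and 48.3 RPM in LLC-Chem, with overlapping groups and an interval from -0.19 to 0.37. The difference between E2f1 and the other two factors was not tested.

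**Figure D2:**
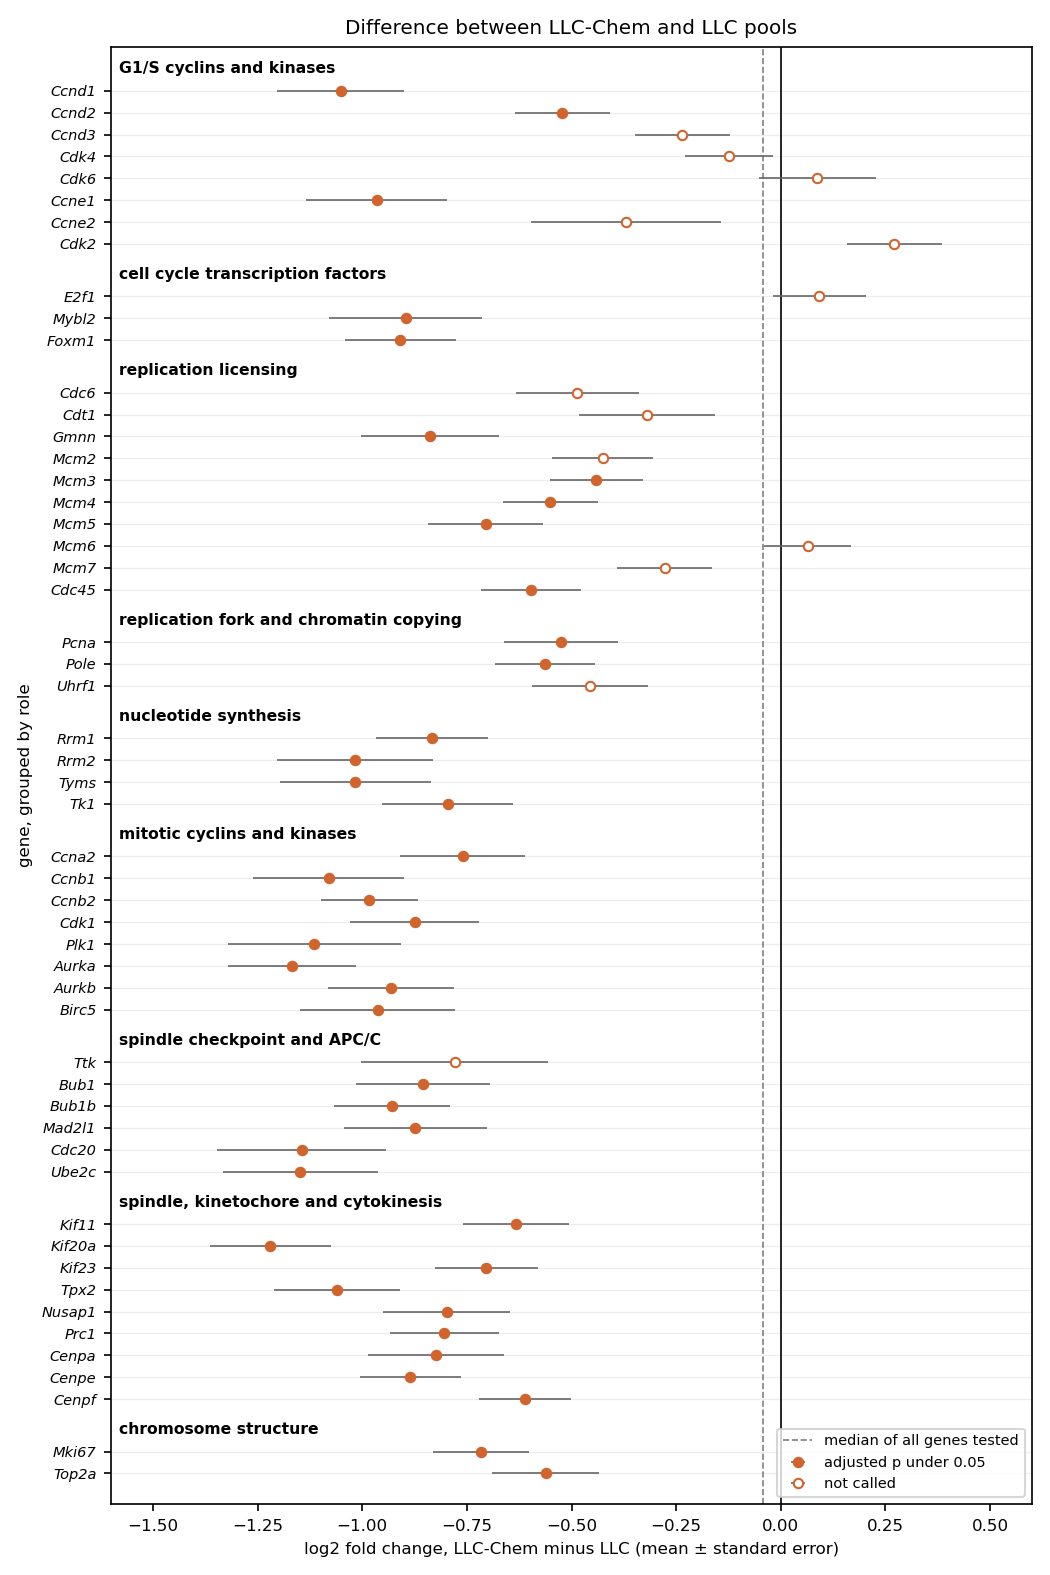
Log2 fold change of LLC-Chem against LLC for each of the 53 genes, with its standard error from limma, grouped by role, and the median of all genes tested as a dashed line. Filled points passed the test at an adjusted p under 0.05, open points did not, and the range runs from Kif20a at -1.22 to Cdk2 at 0.27.

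Of the 10 licensing genes, whose products load and activate the MCM helicase at origins, 5 were called lower, against 13.5% of all genes tested. Their median log2 fold change was -0.46. Gmnn (geminin), the inhibitor of the loader CDT1, fell from 39.6 and 30.8 RPM to 20.5 and 18.2 RPM (-0.84 ± 0.16, limma, adjusted p = 0.0265). Cdc45, a partner of the active helicase, fell from 37.0 and 33.5 RPM to 23.5 and 22.7 RPM (-0.60, limma, adjusted p = 0.0275). Both had LLC-Chem pools well under the LLC pools and close to each other. The loaders Cdc6 (log2 fold change -0.49, adjusted p = 0.0633) and Cdt1 (-0.32, adjusted p = 0.194) did not pass the limma test.

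The subunits of the MCM2-7 helicase, which form 1 ring, had unequal fold changes. Mcm5 fell from 94.0 and 93.0 RPM to 64.3 and 50.8 RPM (-0.71 ± 0.14, limma, adjusted p = 0.0260). Mcm4 fell from 128 and 111 RPM to 83.3 and 79.2 RPM (-0.55, limma, adjusted p = 0.0285). Mcm3 fell from 153 and 136 RPM to 112 and 101 RPM (-0.44, limma, adjusted p = 0.0441). For Mcm2 (-0.43, adjusted p = 0.0557) and Mcm7 (-0.28, adjusted p = 0.125) the groups did not overlap either, but limma did not call them. Both LLC-Chem pools were below both LLC pools for 39.3% of all genes tested. Mcm6 had the highest RPM of the licensing genes, at 225 and 204 RPM in LLC and 218 and 230.3 RPM in LLC-Chem. Its groups overlapped, its interval ran from -0.20 to 0.32, and its log2 fold change went from 0.06 to -0.006 without LLC pool 2. Without a variance trend the calls of Mcm3 (limma, adjusted p = 0.0824) and Mcm4 (adjusted p = 0.0573) were lost. The interval of Mcm6 lay above that of Mcm5 (-1.05 to -0.36) and that of Mcm4 (-0.83 to -0.27), and the difference between subunits was not tested.

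At the fork, Pcna, the sliding clamp of the replicative polymerases, fell from 199 and 162 RPM to 132 and 118 RPM (-0.53 ± 0.14, limma, adjusted p = 0.0463). This call was lost without a variance trend (limma, adjusted p = 0.0820) and with edgeR's quasi-likelihood test (adjusted p = 0.0504). Pole, the catalytic subunit of polymerase epsilon, had the lowest level of the 53 per kilobase of exon in LLC (2.66 RPM per kb; in LLC-Chem it was at 1.78 and Ttk lower, at 1.60) and fell from 28.9 and 30.4 RPM to 20.2 and 19.6 RPM (-0.56, limma, adjusted p = 0.0307). Uhrf1, which brings the maintenance DNA methyltransferase to copied DNA, was at 137 and 110.2 RPM in LLC and 94.6 and 84.6 RPM in LLC-Chem and did not pass the test (adjusted p = 0.0651).

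All 4 genes of deoxynucleotide synthesis were called lower, against 13.5% of all genes tested, and their summed level was 53.9% of LLC. Rrm2, the regulated subunit of ribonucleotide reductase, went from 119.9 and 87.7 RPM to 55.9 and 45.4 RPM (-1.02 ± 0.19, limma, adjusted p = 0.0232). Its partner Rrm1 went from 166 and 153 RPM to 99.4 and 80.1 RPM (-0.83 ± 0.13, limma, adjusted p = 0.0180). Both subunits of the enzyme thus fell with no overlap between the groups, where 39.3% of all genes tested had both LLC-Chem pools lower. Tyms (thymidylate synthase) fell from 39.3 and 31.3 RPM to 19.2 and 15.2 RPM (-1.02, limma, adjusted p = 0.0218). Tk1 (thymidine kinase), the salvage route to the same nucleotide, fell from 92.2 and 82.6 RPM to 57.3 and 43.7 RPM (-0.80, limma, adjusted p = 0.0265).

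In the 4 groups of mitotic genes 24 of 25 were called lower, with a median log2 fold change of -0.88, against 16 of 28 and a median of -0.52 in the other 5 groups. The difference between these sets was not tested. Of all genes tested, 13.5% were called lower, with a median of -0.04. All 8 mitotic cyclins and kinases fell. Cdk1, the kinase that starts mitosis, went from 155 and 119 RPM to 78.6 and 69.4 RPM (-0.87 ± 0.15, limma, adjusted p = 0.0218). Its B-type cyclin Ccnb2 went from 106 and 90.5 RPM to 50.4 and 48.3 RPM (-0.98 ± 0.12, limma, adjusted p = 0.0126). The other B-type cyclin, Ccnb1, went from 90.7 and 72.7 RPM to 43.9 and 33.1 RPM (-1.08, limma, adjusted p = 0.0193). All 3 had the higher LLC-Chem pool below the lower LLC pool, as had 39.3% of all genes tested. Ccna2 (cyclin A2), which acts in S and G2, fell from 109 and 87.8 RPM to 62.7 and 52.7 RPM (-0.76, limma, adjusted p = 0.0265, or 0.0507 without a variance trend).

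Among the other mitotic kinases, Aurka (Aurora A), which acts at the spindle poles, fell from 55.5 and 47.0 RPM to 24.7 and 20.3 RPM (-1.17 ± 0.15, limma, adjusted p = 0.0135). Plk1 (Polo-like kinase 1) fell from 59.1 and 49.0 RPM to 29.6 and 20.4 RPM (-1.11 ± 0.21, limma, adjusted p = 0.0238). The LLC-Chem pools of Plk1 lay apart, and its log2 fold change ran from -1.38 to -0.85 over the alternatives tried. Aurkb (Aurora B) fell from 64.4 and 52.6 RPM to 32.9 and 27.9 RPM (-0.93, limma, adjusted p = 0.0182). Birc5 (survivin), its partner in the chromosomal passenger complex, fell from 110.0 and 80.2 RPM to 52.9 and 43.4 RPM (-0.96, limma, adjusted p = 0.0257).

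The spindle checkpoint holds the anaphase-promoting complex (APC/C) until chromosomes are attached. Of the 6 genes listed for both, 5 were called lower, against 13.5% of all genes tested. Ube2c, the ubiquitin-conjugating enzyme of the APC/C, went from 131 and 95.9 RPM to 55.8 and 45.4 RPM (-1.15 ± 0.19, limma, adjusted p = 0.0181). Cdc20, the activator of the APC/C that the checkpoint inhibits, went from 88.9 and 81.3 RPM to 46.8 and 31.1 RPM (-1.14 ± 0.20, limma, adjusted p = 0.0217). The LLC-Chem mean was 44.6% of the LLC mean for Ube2c and 45.8% for Cdc20. The LLC-Chem pools of Cdc20 lay apart, and its log2 fold change ran from -1.43 to -0.85 over the alternatives tried. Of the checkpoint genes, Bub1b, which binds CDC20 in the checkpoint complex, went from 86.2 and 75.1 RPM to 46.3 and 38.1 RPM (-0.93, limma, adjusted p = 0.0160). Mad2l1, another part of that complex, went from 85.5 and 62.5 RPM to 41.7 and 37.7 RPM (-0.87, limma, adjusted p = 0.0264), and the kinase Bub1 went from 57.5 and 47.9 RPM to 32.2 and 25.8 RPM (-0.85, limma, adjusted p = 0.0245). Ttk (MPS1), the kinase that starts the checkpoint signal, was at 16.1 and 11.7 RPM in LLC and 8.79 and 6.90 RPM in LLC-Chem, with no overlap, and was not called (-0.78, limma, adjusted p = 0.0568).

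All 9 spindle, kinetochore and cytokinesis genes were called lower, against 13.5% of all genes tested. Kif20a, a kinesin of the central spindle, had the most negative log2 fold change of the 53 genes, going from 52.1 and 51.8 RPM to 24.7 and 19.6 RPM (-1.22 ± 0.15, limma, adjusted p = 0.0126). Tpx2, which activates Aurora A on the spindle, had the highest RPM of this group and went from 139 and 112 RPM to 65.4 and 54.4 RPM (-1.06 ± 0.15, limma, adjusted p = 0.0149). The 2 LLC pools of Kif20a were nearly equal, while those of Tpx2 lay further apart. Kif11, the kinesin that separates the spindle poles, fell from 86.4 and 74.3 RPM to 55.0 and 48.2 RPM (-0.63, limma, adjusted p = 0.0273, or 0.0528 without a variance trend). Of the proteins of the midzone where the cell divides, Kif23 fell from 69.5 and 61.8 RPM to 42.8 and 37.5 RPM (-0.70, limma, adjusted p = 0.0214), and Prc1 fell from 68.5 and 59.2 RPM to 38.8 and 33.8 RPM (-0.80, limma, adjusted p = 0.0183). Nusap1, a spindle microtubule-binding protein, fell from 53.5 and 43.2 RPM to 29.5 and 25.5 RPM (-0.80, limma, adjusted p = 0.0253).

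The 3 centromere and kinetochore members also fell. Cenpe, the kinetochore kinesin, went from 75.6 and 64.3 RPM to 38.1 and 36.9 RPM (-0.89, limma, adjusted p = 0.0141). Cenpa, the histone H3 variant that marks centromeres, went from 88.4 and 73.9 RPM to 51.6 and 40.0 RPM (-0.82, limma, adjusted p = 0.0267). Cenpf, a large kinetochore protein, went from 80.7 and 74.7 RPM to 48.0 and 53.5 RPM (-0.61, limma, adjusted p = 0.0225). For Cenpf the LLC-Chem pools stood in the opposite order to most members, with pool 2 above pool 1.

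The proliferation marker Mki67 (Ki-67), which coats mitotic chromosomes, fell from 224 and 209.8 RPM to 142 and 122 RPM (-0.72 ± 0.11, limma, adjusted p = 0.0179). Top2a, the topoisomerase that untangles copied chromosomes, fell from 332 and 273 RPM to 209 and 198 RPM (-0.56 ± 0.13, limma, adjusted p = 0.0351), a call lost without a variance trend (adjusted p = 0.0652). Their levels in LLC-Chem were 60.9% and 67.4% of LLC. Their groups did not overlap, with LLC-Chem lower, as for 39.3% of all genes tested.

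**Figure D3:**
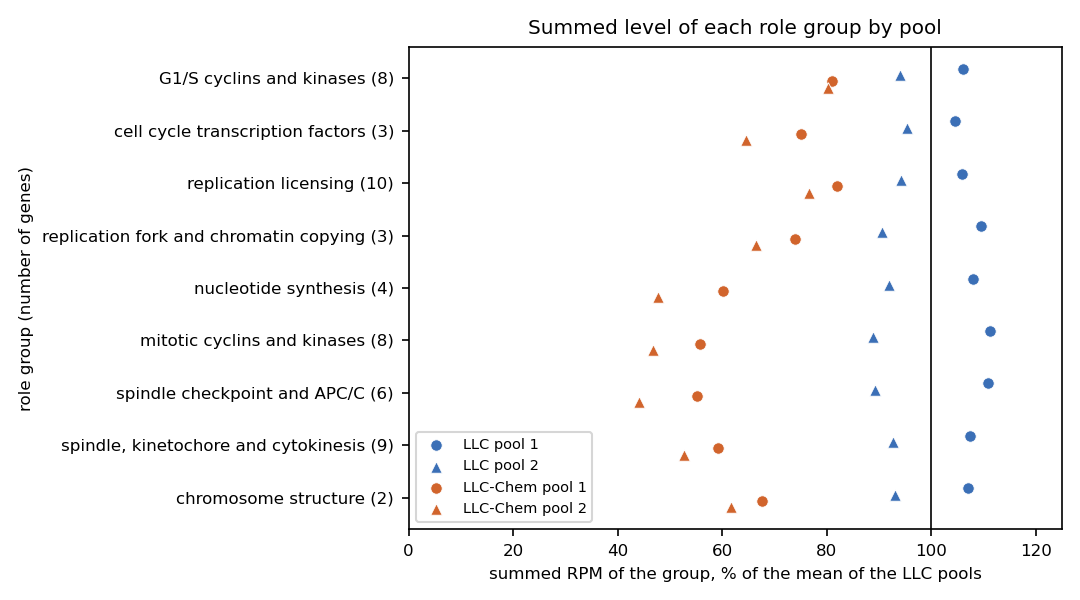
Summed RPM of each role group in each pool, as a percentage of the mean of the LLC pools. Circles are pool 1 and triangles pool 2 of LLC (blue) and LLC-Chem (orange). Group means in LLC-Chem run from 49.6% for the checkpoint and APC/C genes to 80.6% for the G1/S cyclins and kinases.

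The order of the groups by summed level in LLC-Chem was 49.6% of LLC for the checkpoint and APC/C genes, 51.3% for the mitotic cyclins and kinases, 53.9% for nucleotide synthesis and 55.9% for the spindle genes. It went on with 64.7% for chromosome structure, 69.8% for the transcription factors, 70.2% for the fork, 79.2% for licensing and 80.6% for the G1/S cyclins and kinases. These sums are led by their most abundant members, Cdk4 in the G1/S group and Mcm6 in the licensing group, neither of which was called.

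Other genes of the same pathways were taken from a list of 138 made by role, of which 135 were tested, 55 were called lower (40.7%, against 13.5% of all genes tested) and 1 was called higher (9.54% of all genes tested), with a median log2 fold change of -0.43. Of the spindle and cytokinesis genes 15 of 18 fell, among them Ckap2, a spindle protein (-1.10, limma, adjusted p = 0.0170), and the chromokinesin Kif4 (-1.01, adjusted p = 0.0212). Of the G2/M control genes 8 of 15 fell, among them Gtse1, a microtubule-binding regulator of p53 (-1.51, limma, adjusted p = 0.0126), and Cdc25c, the phosphatase that activates CDK1 (-1.01, adjusted p = 0.0179). Of the kinetochore genes 9 of 19 fell, among them the outer kinetochore genes Casc5 (-0.99) and Nuf2 (-0.91). In the list of 11 condensin and cohesin genes, the 5 that fell all encode condensin subunits (Ncapg2, -0.98, Ncaph, -0.83, Ncapg, Smc2 and Ncapd2). The condensin genes Smc4, Ncapd3 and Ncaph2 and the cohesin genes Smc1a, Smc3 and Rad21 were not called, and these names are given after the values were seen.

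Of 15 genes of origin recognition and firing 3 fell, among them Dbf4 (-0.83), the activator of the CDC7 kinase, and Mcm10 (-0.83), which is needed for origin firing. Of the tested polymerase and fork genes 5 of 27 fell (18.5%). Both shares were near the 13.5% of all genes tested. Of the polymerase and fork genes, those with the most negative values were the nuclease Dna2 (-0.89) and the histone chaperone Asf1b (-0.74). Of 12 genes of nucleotide supply 5 fell, among them the salvage kinase Dck (-0.80). Fen1, the flap nuclease, was under the testing level, and 84.2% of its exon bases lie under other annotated genes.

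Of the tested RB, E2F and CDK inhibitor genes 5 of 18 fell and 1 rose, where 13.5% of all genes tested were called lower and 9.54% higher. E2f8, a repressive E2F that is itself raised in S phase, went from 54.8 and 40.3 RPM to 24.3 and 16.8 RPM (-1.20 ± 0.23, limma, adjusted p = 0.0259). Cdkn1a (p21), an inhibitor of CDK2 and a p53 target, fell from 337 and 279 RPM to 140.3 and 136 RPM (-1.15 ± 0.12, limma, adjusted p = 0.0117). Cdkn1b (p27), an inhibitor of the same kinases, named here after its value was seen because it was the only pathway gene called higher, rose from 58.2 and 53.4 RPM to 84.2 and 91.8 RPM (0.65 ± 0.11, limma, adjusted p = 0.0185). Cdkn1c (p57), the third gene of this inhibitor family, also named after its value was seen, fell from 5.15 and 8.89 RPM to 2.998 and 2.65 RPM (-1.13, limma, adjusted p = 0.0448). Of these 3 inhibitors p21 and p57 thus fell and p27 rose, with no overlap between the groups for any. Of all genes tested, 39.3% had both LLC-Chem pools below both LLC pools and 33.1% had both above.

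**Figure D4:**
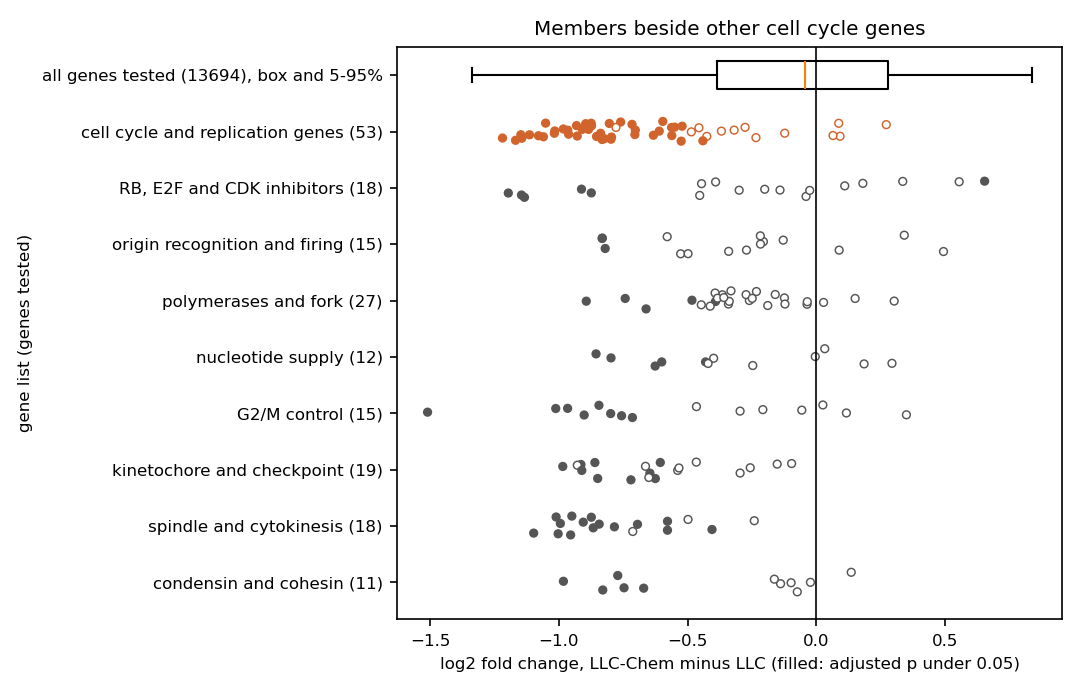
Log2 fold changes of LLC-Chem against LLC for all 13694 genes tested (box of quartiles with the median, whiskers from the 5% to the 95% quantile) and, as points, for the 53 genes (orange) and the 135 tested pathway genes by role (grey). Filled points passed the test at an adjusted p under 0.05. The medians lie at -0.80 for the 53 genes, -0.43 for the pathway genes and -0.04 for all genes tested.

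Some of these values may include reads of neighbouring genes or near copies, since the study does not state whether strand was used in counting. In the GENCODE M21 annotation (GRCm38) 29.3% of the exon bases of Kif20a lie under Cdc23, 23.4% of those of Ccnd1 under LTO1, 22.8% of those of Ube2c under Tnnc2 and 19.7% of those of Cdk4 under Tspan31. Of the 50-base words of the exons, 23.4% of those of Ccnb1, 23.3% of those of Mcm7, 19.3% of those of Mybl2 and 19.1% of those of Pcna also occur in other annotated genes. The share of reads that this touches was not measured.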

How the data were processed

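RNA-seq of 4 tumor pools (2 LLC, 2 LLC-Chem) was analysed. Per the study's methods, STAR was used by the authors to align the paired-end reads (GRCm38), and HTSeq to count them on Ensembl 84 genes; the strand setting is not given in the sources used here. The authors deposited RPM for 47729 genes. The values were whole steps (100% of nonzero values within 6e-05 RPM of one) that sum to about the same total in every library, as after a common scaling. Library totals were fitted from the steps, and the reads used in count tests were recovered from both.

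Because RPM are not counts, limma 3.58.1 (R 4.3.3, eBayes with trend, two-sided, Benjamini-Hochberg) was used on log2(RPM + 0.5) for genes averaging 1 RPM or more (13694). It was also run on simulated reads, and the outcome of that run is not given here. edgeR 4.0.16 and DESeq2 1.42.0 on recovered reads, other pseudocounts, filters and scalings, a replicate block and leaving out each pool were alternatives. The crossed block and the edgeR likelihood ratio test were added after seeing the data. Pools of a group differed by more than sampling noise (chi-square per gene 65.9 for LLC and 26.9 for LLC-Chem, genes with at least 20 reads). The members and lists were chosen with earlier results of these data known.

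Statistics are given for members that were called, and in each role for the member with the highest mean RPM and the one with the lowest adjusted p. Of the pathway genes, at most 2 called genes per role, with the largest absolute log2 fold change, are given with values; 1 such gene is not reported here. Symbols were matched to GENCODE M21 for 98.9% of identifiers. Sequences come from RefSeq.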

Additional observations from a re-analysis of the deposited data

How the results depend on the processing

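Of the 53 genes, 42 were followed one by one: the 40 called in the main fit, and Cdk4 and Mcm6, the most abundant of their role groups. All of them except Mcm6 kept their direction under the 17 alternatives. This choice used the same values and favours a kept direction. It left out Cdk2, Cdk6 and E2f1, whose log2 fold changes were positive. The number of calls varied. Of the 53, 40 were called with both other pseudocounts, the 5 RPM filter and both other scalings, 33 by limma without trend (lost: Ccna2, Ccnd2, Kif11, Mcm3, Mcm4, Pcna and Top2a), 39 by edgeR's quasi-likelihood test (Pcna lost), and 43 by DESeq2 and by edgeR's likelihood ratio test. Of all genes tested, 12% to 13.4% were called lower with the other pseudocounts, filter and scalings, 9.28% without trend, 11.7% by the quasi-likelihood test, 16.6% by DESeq2 and 16.8% by the likelihood ratio test. When all genes above 0 were tested, 0 of the 53 and 0 pathway genes were called (44 and 81 at an unadjusted p under 0.05, against 28.2% of all genes), and over all genes 0 were called lower and 1 higher; the cause was not tested. Leaving out each pool gave 0 calls in both lists in each case (37 to 44 members and 43 to 89 pathway genes at an unadjusted p under 0.05, against 18.8% to 36.3% of all genes). There the lone pool is assumed to vary like the other group. Mcm6 ran from -0.006 (without LLC pool 2) to 0.135 over these fits. In the bases before the start alone, 26.2% of member promoters held a CHR word, against 45.2% in the 300 bases (12.0% and 13.6% of promoters of protein-coding genes tested).

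The labels number the pools 1 and 2 in both groups, but same-numbered pools did not deviate together over all genes (r = -0.14 across 13694 genes, which are not independent). Across the 53, r was 0.22, which does not measure a shift in level that these genes share. Pool 1 was above pool 2 for 51 of them in LLC and 49 in LLC-Chem (57.6% and 51.6% of all genes tested). With the replicate number as a block limma called 32 of the 53 (lost: Ccnd2, Cdc45, Cenpf, Mcm3, Mcm4, Pcna, Pole and Top2a) and 40 pathway genes. With the same block edgeR's quasi-likelihood test called 29 and 28, and 11 of the 42 genes followed one by one lost their call. Of all genes tested, 7.77% (limma) and 5.35% (edgeR) were called lower in these fits. With the numbers crossed limma called 40 and 62, and 16.9% of all genes tested were called lower. The depth was ample for all 53 genes, and the 2 pools per group limit the precision.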
